A study of Mus musculus with 10 samples.

Results

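Sertoli cells are the somatic cells of the seminiferous tubule that enclose and nourish the germ cells. They were taken here as the cells that the authors named soma_Sertoli, and they numbered 3265 of 45250 cells in scRNA-seq and 125740 of 343866 cells in scATAC-seq. The assay was designed to read both RNA and open chromatin in nuclei of whole testes, with 1 library per condition and assay, but most nuclei of the tables have scATAC-seq data alone. All mice were C57BL/6J or made in that background. The wild-type mice were aged 11, 17 and 25 days post partum (dpp), and the other mice were 8 weeks old. The 8-week-old controls, Cre/+, carried the Stra8-Cre allele alone, which also marks cells with ZsGreen1. The 8-week-old Nfya fl/fl; Stra8-Cre mice, labelled Nfya-CKO, lost exons 5 to 6 of Nfya where Cre was made. Stra8-Cre acts in germ cells, so the Nfya gene of Sertoli cells was not the one targeted. Because no condition was repeated, no p-value was computed, cells were not treated as replicates, and the exact Clopper-Pearson 95% intervals below cover counting error only, as does the limit of 3 cells that is given for a share of 0.

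As background, Sertoli cells begin their fetal life under Sox9, multiply under follicle-stimulating hormone until around puberty, and then mature and stop dividing. Mature Sertoli cells join one another by tight junctions into the blood-testis barrier, secrete the fluid and carrier proteins that surround germ cells, feed them with lactate, make retinoic acid and clear dying germ cells. Since they stop dividing early while germ cells multiply, their share of testis cells falls as the first wave of spermatogenesis proceeds.

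The RNA of the Sertoli cells carried the marker Sox9, the transcription factor that sets Sertoli fate, and much of the known program of the cell. In units of mean UMIs (unique molecular identifiers, each marking 1 captured transcript) per 10000 UMIs of a population, Sox9 stood at 10.7 in Sertoli cells. In the 9 germ cell populations its level was 0.531 in undifferentiated and 0.407 in differentiating spermatogonia, 0.771 in preleptotene, 1.59 in early leptotene to zygotene and 0.824 in leptotene to early pachytene spermatocytes, 0.285 in pachytene and 0.481 in diplotene spermatocytes, 0.299 in round spermatids and 1.90 in elongating spermatids. The Sertoli level was thus above every germ cell level, and the ratio to the highest of them was 5.40-fold after adding 0.1 to both values. The same was done for the RNA ratios below, except in counting genes lower than in germ cells. The somatic population named soma_CKO had 3.54, the unnamed somatic population 1.5 and the spermatogonia of the library labelled Nfya-CKO 0.820. Sox9 lies at chr11:112782210-112787757 of GRCm38.

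The second marker, Clu at chr14:65968483-65981548, encodes the secreted chaperone clusterin. Its RNA did not set Sertoli cells apart. The level was 34.1 in Sertoli cells and 31.3 in elongating spermatids, a ratio of 1.09-fold, and it was 91.5 in soma_CKO. The remaining 8 germ cell populations lay between 1.55 in pachytene spermatocytes and 8.20 in early leptotene to zygotene spermatocytes, and Nfya-CKO spermatogonia had 22.8. In accessibility Clu did stand above the germ cells, as its scATAC-seq value was 118 in Sertoli cells, 56.3 in elongating spermatids, the highest germ cell population, and 53.4 in soma_CKO, but the unnamed somatic population had 119. The scATAC-seq values are given per 1000000 of the signal of nuclear genes in a population. The columns of this table include differentiating spermatogonia and elongating spermatids, which are names given to cells by RNA and to no cell by scATAC-seq, so the Sertoli column may pool only the 3190 Sertoli cells by RNA that have scATAC-seq data and not all 125740. For Sox9 the values were 128 in Sertoli cells, 63.3 in the highest germ cell population, 67.3 in soma_CKO and 36.3 in the unnamed somatic population. Both markers were therefore at least 2.01-fold above all germ cell populations in accessibility (ratio of value + 1), whereas Sox9 alone was so in RNA.

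Nfya itself had a low level in Sertoli cells, 0.360, against 0.767 in elongating spermatids, the highest germ cell population, and 0.822 in soma_CKO. The highest level of the 13 populations, 1.11, was in the spermatogonia of the library labelled Nfya-CKO, against 0.456 in undifferentiated spermatogonia, so the targeted gene was not lower there, and a level over the whole gene does not show which exons were read. The partner subunits stood at 0.30 (Nfyb) and 0.863 (Nfyc), and the summed level of the 3 genes of the NF-Y complex was 1.52, close to the lowest germ cell sum of 1.52 and below the highest, 2.98 in preleptotene spermatocytes. For Nfya the accessibility of Sertoli cells was 160, of soma_CKO 159 and of pachytene spermatocytes, the highest, 228.

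The number of Sertoli cells differed between libraries and between the assays by which cells were named, and since each age was 1 library, age and library cannot be told apart. By scRNA-seq there were 2866 of 6273 cells at 11 dpp (45.7%, interval 44.4% to 46.9%), 382 of 3746 at 17 dpp (10.2%, 9.25% to 11.2%), 14 of 18039 at 25 dpp (0.0776%, 0.0424% to 0.130%) and 2 of 11991 in Cre/+ (0.0167%, 0.00202% to 0.0602%). The library labelled Nfya-CKO held 0 of 5152, which allows a share of this RNA name of up to 0.0582%. These shares count cells by name. By staining, the paper found similar numbers of Sertoli cells positive for SOX9 in Nfya-CKO and Cre/+ testes. A single further Sertoli cell had no library name. By scATAC-seq the shares were 67.3% (54337 of 80769) at 11 dpp, 68.0% (48873 of 71823) at 17 dpp, 12.1% (11821 of 97798) at 25 dpp, 2.82% (2215 of 78556) in Cre/+ and 56.9% (8494 of 14920) in the library labelled Nfya-CKO. The last share was 28.4% among cells with a TSS enrichment (how far coverage peaks at transcription start sites) of at least 8. With at least 4, the limit that every cell of the other libraries met and 2091 cells of this library (14.0%) did not, it was 55.2%. Among wild-type libraries the share was lowest at 25 dpp by either assay, while 11 and 17 dpp lay far apart by RNA and close together by accessibility. The pooled RNA values of Sertoli cells rest on 11 dpp for 87.8% of the cells, which is 1 library.

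**Figure D1:**
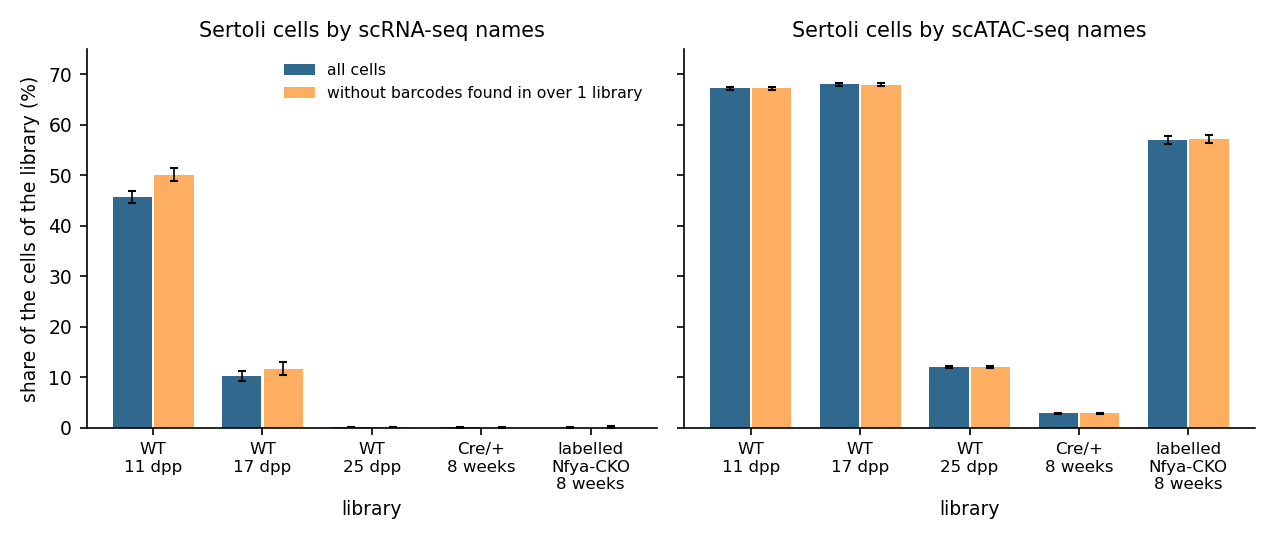
Share of cells named Sertoli cells in each of the 5 libraries by scRNA-seq (left) and by scATAC-seq (right), in percent of the cells of that library; bars show the share, error bars the exact 95% interval for counting error, blue all cells and orange the cells left without barcodes found in over 1 library. The RNA share falls from 45.7% at 11 dpp to 0 in the library labelled Nfya-CKO, in which the scATAC-seq share is 56.9%.

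For nuclei that have data from both assays, the names can be compared cell by cell. Of the 3190 Sertoli cells by RNA that were also in the scATAC-seq table, 3156 had the same name there (98.9%, interval 98.5% to 99.3%). In the other direction, 4958 Sertoli cells by scATAC-seq had an RNA name, and 3156 of those names were Sertoli (63.7%). At 11, 17 and 25 dpp these were 92.7%, 47.1% and 4.69%, with 0 of 76 in Cre/+ (which allows up to 3.95%) and 0 of 875 in the library labelled Nfya-CKO (up to 0.343%). In that library, 855 of the 875 were named soma_CKO by RNA. At 17 dpp, the commonest other name was early leptotene to zygotene spermatocytes, with 222 cells. The remaining 120782 Sertoli cells by scATAC-seq had no RNA name, and their median was 2365 fragments per cell against 23133.5 for those named Sertoli cells by both assays.

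The cells named by scATAC-seq came from a pair of clusters that differed in depth. The smaller cluster held 21721 cells with a median of 18317 fragments, and the larger held 104019 cells with a median of 2136. By RNA, 2155 cells of the smaller and 1001 of the larger were named Sertoli cells, while 18649 and 102133 had no RNA name. The smaller one took 7274 cells from the library labelled Nfya-CKO, where their median was 2126 fragments, the TSS enrichment was 5.55 and the ratio of nucleosome-bound to nucleosome-free fragments 0.885. In the same cluster, the 9951 cells of 11 dpp had medians of 20371 fragments, a TSS enrichment of 13.5 and a nucleosome ratio of 0.461. Over all Sertoli cells by scATAC-seq, the library labelled Nfya-CKO had a median TSS enrichment of 5.49 and a median doublet enrichment (similarity to simulated mixtures of 2 cells) of 0.522, whereas the other 4 libraries lay between 9.21 and 13.2 and between 0.0550 and 0.0809. The lowest TSS enrichment among them was 2.01, and 1415 of the 8494 were below 4. The remaining cells of that library also had high doublet enrichment and low TSS enrichment. The medians were 7.44 and 0.533 in its 3321 soma_CKO cells (TSS enrichment, then doublet enrichment), 7.02 and 0.533 in its 2923 spermatogonia, and 5.54 and 0.361 in its 182 other germ cells. The part of this in the share of Sertoli cells was not tested. In RNA, Sertoli cells were deeper than germ cells in each library that held any: median UMIs were 10373 against 4708 at 11 dpp, 16182.5 against 4872.5 at 17 dpp, 8178.5 against 2622.5 at 25 dpp and 13992 against 2869.5 in Cre/+. The last medians rest on 14 Sertoli cells at 25 dpp and 2 in Cre/+, and both of the Cre/+ cells had barcodes also found in the library labelled Nfya-CKO.

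Some cell barcodes occurred in over 1 library, which bears on the populations that Sertoli cells are set against. In scRNA-seq, 5030 of 39674 distinct barcodes (12.7%) did so, with 3813 shared by Cre/+ and the library labelled Nfya-CKO and 621 to 853 by each pair of wild-type libraries. In scATAC-seq it was 982 of 342825 (0.286%). Of the Sertoli cells, 214 of 3264 (6.56%) shared a barcode, 142 of them at 11 dpp. These made 216 pairs with a cell of another name in another library, and the Sertoli cell was the deeper one in 215, with a median of 18674 UMIs against 696. A further 8 pairs joined Sertoli cells of 11 and 17 dpp. In 200 pairs the partner was named an early leptotene to zygotene spermatocyte (Lep_Zygo1). Of those 200 spermatocytes, 2 were in the scATAC-seq table of their own library (1.0%), compared with 3714 of 4286 (86.7%) of the Lep_Zygo1 cells that shared no barcode. Among soma_CKO cells, 4119 of 5880 (70.1%) shared a barcode, and among elongating spermatids 712 of 1193 (59.7%). Without shared barcodes the wild-type libraries had Sertoli shares of 50.1%, 11.7% and 0.0822%, in order of age, and Cre/+ had 0 (up to 0.0367%). The population means were deposited pooled, so they could not be recomputed without these cells.

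Against the 9 germ cell populations, 699 of 8130 genes (8.60%) with a level of at least 0.2 in Sertoli cells were at least 2-fold above the highest germ cell population, and are called Sertoli-high below. The ratio was 2-fold to 4-fold for 601 of them, 4-fold to 8-fold for 96 and above 8-fold for 2. Over all genes tested, the median log2 ratio to the highest germ cell population was -0.57. These genes summed to 20.7% of the UMIs of Sertoli cells, 10.3% of those of soma_CKO and between 1.64% (pachytene spermatocytes) and 5.68% (elongating spermatids) in germ cells. Their median level was 1.81 in Sertoli cells, 0.783 in soma_CKO, 0.457 in elongating spermatids, 0.382 in Lep_Zygo1 spermatocytes and 0.0993 in pachytene spermatocytes. Elongating spermatids were the highest germ cell population for 379 of the 699 (54.2%, against 15.9% of all genes tested), and Lep_Zygo1 for 114 (16.3%, against 6.69%). Without Lep_Zygo1 the count was 709, and without both populations 960. As the cells were clustered and named from these RNA values, the counts describe the cluster and test nothing.

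**Figure D2:**
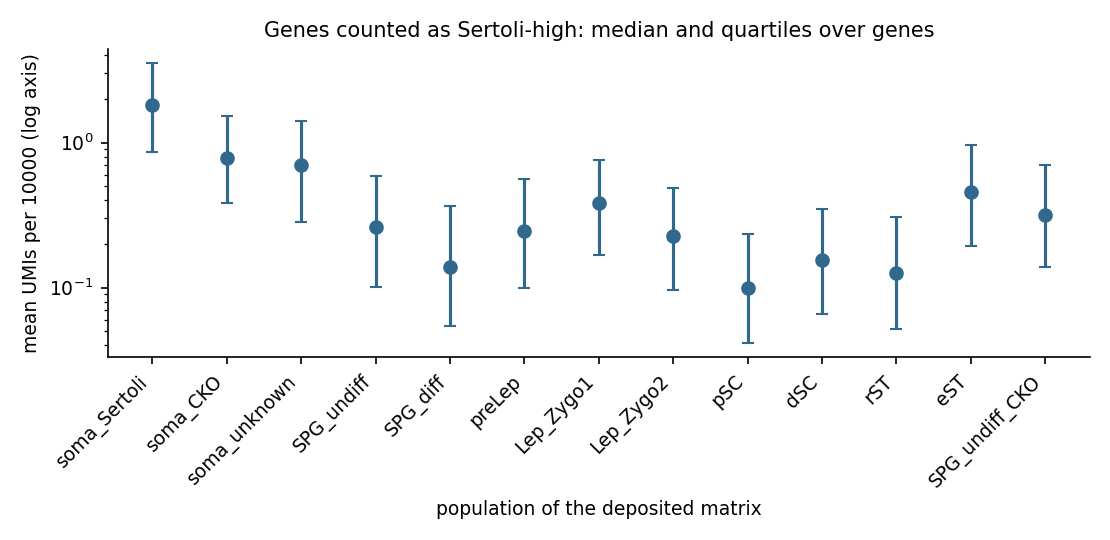
Levels of the 699 Sertoli-high genes in the 13 populations, in mean UMIs per 10000 on a log axis; points are medians over genes and bars run from the lower to the upper quartile. The median is 1.81 in Sertoli cells and at most 0.457 among the germ cell populations, where elongating spermatids and Lep_Zygo1 are highest.

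The 10 highest ratios among genes at 0.5 or more in Sertoli cells belonged to Nedd9, Zfhx4, Socs2, Lpl, Kctd14, Wnt6, Sema3c, Sel1l3, Stra6 and Fshr, with ratios of 8.60-fold to 6.21-fold. These ratios rest on the 0.1 that was added. With 0.5 the log2 ratios ran from 1.46 (Sel1l3) to 2.35 (Kctd14), 8 of the 10 ratios were over 1.5 times smaller, and Sox9 (2.22) was above all but Kctd14 and Sema3c (2.27). Nedd9, a scaffold protein of focal adhesions, stood at 2.83 in Sertoli cells and at most 0.241 in germ cells. Socs2, an inhibitor of cytokine receptor signalling, stood at 2.59 and at most 0.279. Lpl, which encodes lipoprotein lipase, stood at 1.49 and at most 0.126, and Wnt6, a secreted Wnt ligand, at 1.27 and at most 0.10. Fshr, the receptor for follicle-stimulating hormone, had 3.33 in Sertoli cells, 0.494 in soma_CKO and at most 0.452 in germ cells. Accessibility was at least 1.5-fold above the highest germ cell population for 6 of these 10 genes, against 6.49% of all genes tested in scATAC-seq, and Kctd14 had the largest ratio of them, 3.10-fold (35.1 against 10.7). Zfhx4 (1.49-fold) and Fshr (1.37-fold) were below that limit, and Nedd9 and Stra6 had scATAC-seq values of 1.09 and 1.71 in Sertoli cells, under the minimum of 10. Stra6 overlaps Ccdc33, which had an RNA level of 0.0184.

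Among the 16 transcription factors and receptors known from Sertoli cells, 10 were Sertoli-high, against 8.60% of all genes tested. Wt1, required to keep Sertoli identity, stood at 10.1 and at most 2.45 in germ cells. Gata4, a factor of the gonadal soma, stood at 4.97 and at most 1.34, and its accessibility was 51.0 against at most 12.4, or 3.88-fold. Thra, the thyroid hormone receptor that acts when Sertoli cells stop dividing, had 4.17 and at most 0.70. The ratios were smaller for Sox8 (1.34, 2.21-fold), Gata1 (1.29, 2.20-fold) and the insulin receptor Insr (0.780, 2.14-fold). The homeobox gene Rhox8 stood at 3.08, 3.25-fold above the highest germ cell population. Dmrt1, which both Sertoli cells and spermatogonia use, was lower in Sertoli cells (2.13) than in differentiating spermatogonia (4.43), and Igf1r was lower (4.61) than in undifferentiated spermatogonia (8.75). Rhox5 and Etv5 were at 0.222 and 0.249, near the minimum.

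Of the 14 ligands, 6 did not reach 0.2 in Sertoli cells, and 6 of the 8 tested were Sertoli-high, against 8.60% of all genes tested. Kitl, the ligand of the Kit receptor of spermatogonia, stood at 7.11 against at most 1.23, a ratio of 5.41-fold. Dhh, a hedgehog ligand read by Leydig and peritubular cells, had 2.89 against at most 0.492. The inhibin subunit gene Inha had 16.8 and at most 5.95 in germ cells, and Inhbb 3.65 and at most 0.711. Amh, the hormone of immature Sertoli cells, stood at 0.927, above all germ cell populations, whose highest was 0.0710 in Lep_Zygo1, and above soma_CKO at 0.0321. Gdnf, which maintains spermatogonial stem cells, was only just measurable at 0.221, against at most 0.0391. The ligands under the minimum were Inhba, Cxcl12, Jag1, Fgf9, Nrg1 and Bmp4, all at or below 0.0687. Accessibility was at least 1.5-fold above the highest germ cell population for 5 of the 14 (6.49% over all genes tested), among them Inhba (38 against 19.9), whose RNA level was 0.00996.

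Among 16 secreted and carrier proteins, 9 of the 13 tested were Sertoli-high in RNA (8.60% over all genes tested) and 9 were high in scATAC-seq (6.49%). With mitochondrial genes in the scATAC-seq scale, 7 were. Sparc, a matrix protein, had the highest level of the list, 58.1, with 19.6 in elongating spermatids and 42.2 in soma_CKO. The cystatin gene Cst9 stood at 25.6 and Aard, named for its alanine- and arginine-rich domain, at 24.8, 4.04-fold and 5.83-fold above the highest germ cell population. Cathepsin L (Ctsl, 10.5), the beta-defensin Defb19 (9.95), Cst12 (5.07), the plasminogen activator Plat (2.87), the protease inhibitor Serpina5 (1.77) and Shbg (1.66) were also counted. Trf, the transferrin gene, was at 0.151 and Ptgds, which encodes prostaglandin D synthase, at 0.0815, while soma_CKO had 0.872 and 52.3. Cystatins and beta-defensins are families of similar genes, and reads that matched over 1 place were discarded in the alignment, so levels of copies that share sequence are uncertain.

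Shbg encodes the sex hormone binding globulin, the androgen carrier of the tubule fluid. It had the largest scATAC-seq ratio of all, 114 in Sertoli cells against 13.5 in elongating spermatids, the highest germ cell population, or 7.93-fold. In RNA it reached 3.81-fold, with 1.66 in Sertoli cells and 0.361 in Lep_Zygo1. The windows below run from 250 bases before to 50 after the gene start in RefSeq for GRCm38.p6 and are shown for 5 genes of the secreted and junction lists that were high in both RNA and scATAC-seq, with each read 5′ to 3′ on the strand of the gene. Capitals mark exact matches on either strand. The motifs searched were AGATAA, the core read by factors of the Gata family, and AACAAT, the core read by those of the Sox family. They were searched together with CCAAT, the core bound by the NF-Y complex, with the basal promoter element TATAAA, and with the Sp1 box GGGCGG. Shbg lies on the minus strand at chr11:69617856-69618155, Serpina5 on the plus strand at chr12:104100863-104101162, Cldn11 on the plus strand at chr3:31149670-31149969, Cst12 on the plus strand at chr2:148789115-148789414 and Sparc on the minus strand at chr11:55420031-55420330.
Shbg: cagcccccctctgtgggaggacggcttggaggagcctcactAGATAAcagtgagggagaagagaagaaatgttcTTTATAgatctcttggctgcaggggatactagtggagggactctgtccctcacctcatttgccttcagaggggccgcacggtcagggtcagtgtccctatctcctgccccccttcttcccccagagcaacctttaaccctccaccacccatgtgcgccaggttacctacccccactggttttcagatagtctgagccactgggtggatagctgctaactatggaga
Serpina5: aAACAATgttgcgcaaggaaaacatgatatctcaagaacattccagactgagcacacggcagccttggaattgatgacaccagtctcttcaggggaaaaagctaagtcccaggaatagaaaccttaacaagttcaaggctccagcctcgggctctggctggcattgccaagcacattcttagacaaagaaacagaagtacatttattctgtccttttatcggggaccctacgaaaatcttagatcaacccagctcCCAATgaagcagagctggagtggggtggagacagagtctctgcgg
Cldn11: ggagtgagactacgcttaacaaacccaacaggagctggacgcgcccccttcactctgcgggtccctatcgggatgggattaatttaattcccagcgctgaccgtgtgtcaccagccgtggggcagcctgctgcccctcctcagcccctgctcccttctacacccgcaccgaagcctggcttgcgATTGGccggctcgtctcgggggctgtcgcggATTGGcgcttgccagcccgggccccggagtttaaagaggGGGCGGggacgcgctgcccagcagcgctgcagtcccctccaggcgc
Cst12: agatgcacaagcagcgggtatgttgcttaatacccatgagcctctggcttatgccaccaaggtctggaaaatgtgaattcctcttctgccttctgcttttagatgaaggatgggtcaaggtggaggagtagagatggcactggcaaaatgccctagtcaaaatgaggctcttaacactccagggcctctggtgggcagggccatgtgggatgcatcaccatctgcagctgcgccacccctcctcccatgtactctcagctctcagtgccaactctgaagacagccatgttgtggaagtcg
Sparc: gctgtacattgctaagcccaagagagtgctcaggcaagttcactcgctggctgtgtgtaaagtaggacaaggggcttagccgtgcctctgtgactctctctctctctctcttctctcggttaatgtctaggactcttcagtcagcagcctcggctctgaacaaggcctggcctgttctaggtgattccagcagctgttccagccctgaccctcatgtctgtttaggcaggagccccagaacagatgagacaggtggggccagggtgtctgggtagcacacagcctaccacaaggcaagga

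In the Shbg window AGATAA began at position -209 from the gene start and TATAAA matched on the opposite strand at -176. The Serpina5 window held AACAAT at -249 and CCAAT at 6. Cldn11 had CCAAT on the opposite strand at -66 and -35, and GGGCGG at 5. No match to the 5 motifs lay in the windows of Cst12 and Sparc. Over 674 windows of 522 Sertoli-high genes, 35.5% held CCAAT, 6.23% AGATAA, 7.12% AACAAT, 9.20% TATAAA and 63.6% GGGCGG. In the 8101 windows of all genes tested, the shares were 37.7%, 5.73%, 5.81%, 6.47% and 66.2%, with the widest ratio, 9.20% against 6.47%, for TATAAA. In the 205 windows of Sertoli-high genes that were also high in scATAC-seq, from which the 5 printed genes were taken, the shares were 36.1%, 7.32%, 10.2%, 7.32% and 61.0%, and there the widest ratio was that of AACAAT. In all 32851 windows of the table, they were 37.4%, 11.2%, 10.7%, 13.6% and 35.7%. AGATAA and TATAAA have letters in common, so their matches can overlap, and a match is not a measured binding site.

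The cell junction genes were Sertoli-high in 8 of 16 cases, with 15 tested, against 8.60% of all genes tested. A higher level in Sertoli cells than in any germ cell population was found for 15 of the 16, against 27.9% of all genes tested. Cldn11, the claudin of Sertoli tight junctions, stood at 16.0 in Sertoli cells, 6.29 in soma_CKO, 4.01 in elongating spermatids and 2.65 in Lep_Zygo1, and between 0.370 and 1.41 in the remaining 7 germ cell populations. Its accessibility was 115 against at most 27.3, or 4.09-fold. Over the list, 4 of the 14 genes tested in scATAC-seq were high against germ cells (6.49% over all genes tested). With mitochondrial genes in the scATAC-seq scale, 2 were. The adhesion gene F11r stood at 11.1 and at most 3.70, and Gja1, the gap junction protein connexin 43, at 4.08 and at most 0.749. Ocln (1.37, 2.38-fold) and Jam2 (2.60, 3.49-fold) were also high, as were Nectin2, Cgn and Itga6. Tjp1, Ctnnb1, Itgb1 and Ctnna1, which many cell types use, were 1.02-fold to 1.30-fold above the highest germ cell population. Cldn3, the claudin of newly forming barriers, was at 0.0167. When RNA was scaled to the same median in every population, 10 of the 16 were Sertoli-high, and 739 of all genes in place of 699.

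**Figure D3:**
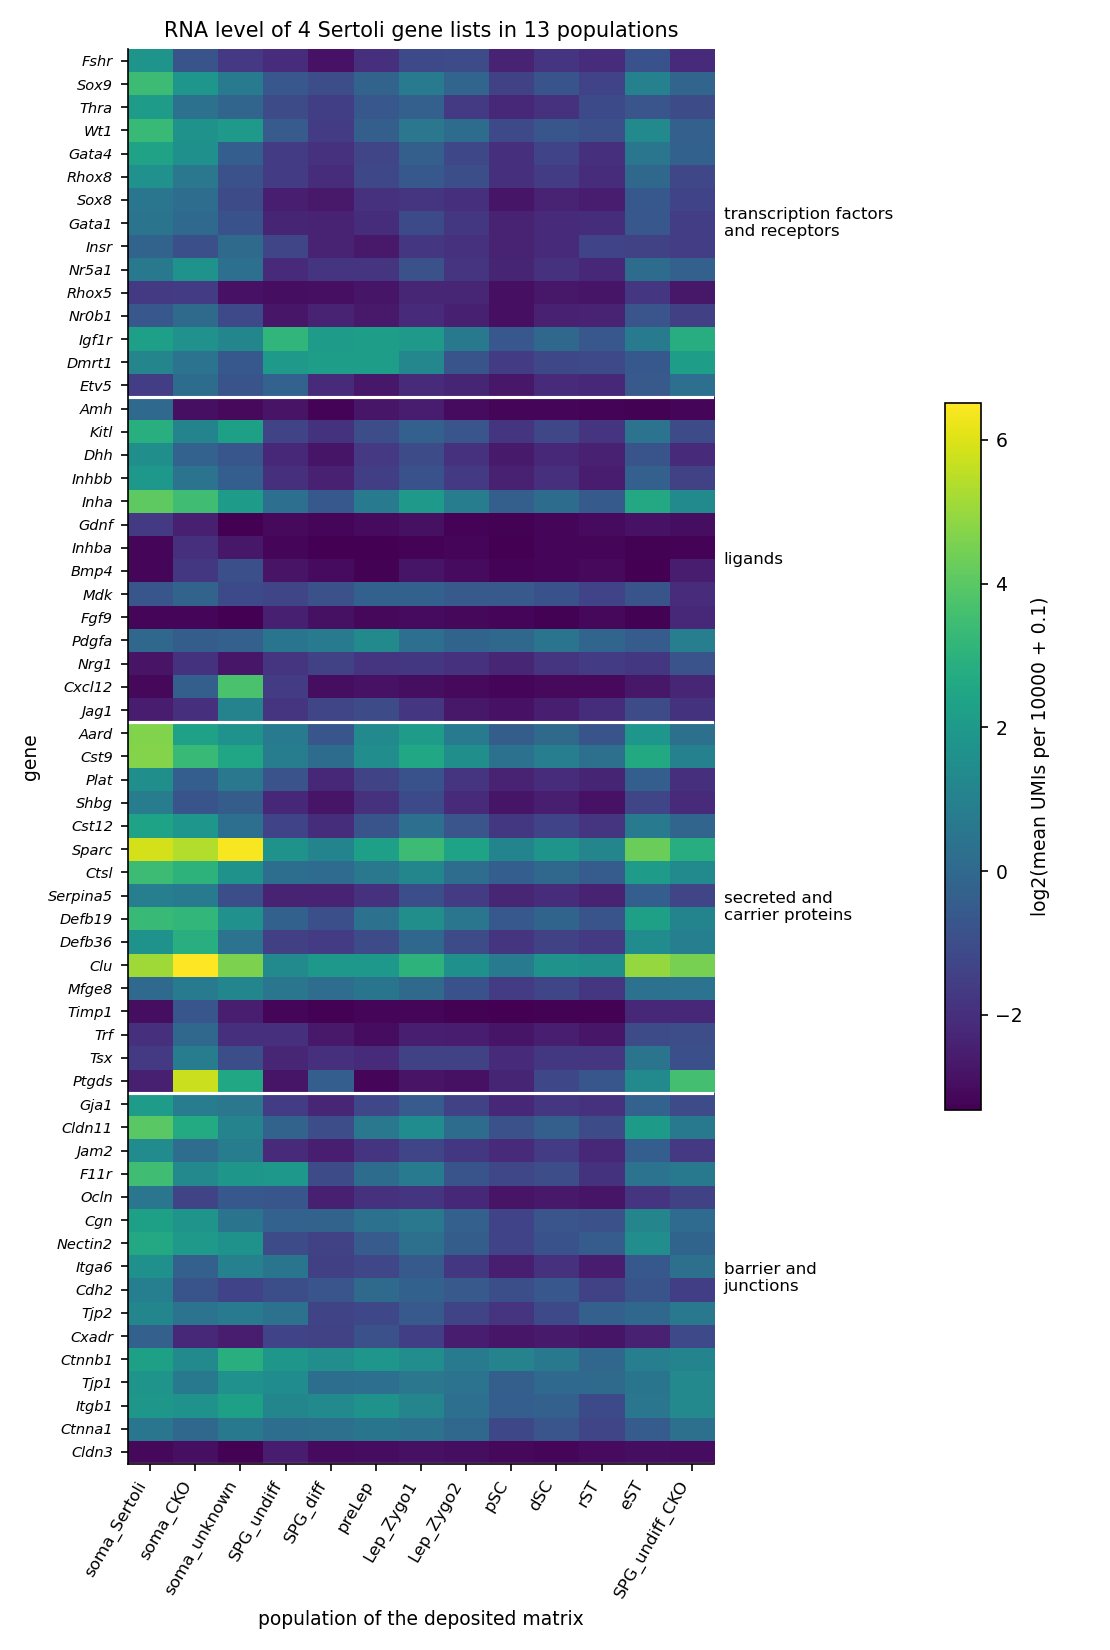
Levels of genes of 4 Sertoli lists in the 13 populations, as log2 of mean UMIs per 10000 plus 0.1 (colour bar); rows are genes grouped by list and columns populations. Sertoli cells have the highest colour in most rows, the brightest germ cell column differs between rows, and Clu and Ptgds are brightest in soma_CKO.

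Of 10 cytoskeleton genes, 8 were tested and 4 were Sertoli-high, where the share of all genes tested was 8.60%. They were the intermediate filament gene Vim (5.93, 3.41-fold), the tubulin Tubb3 (3.80, 3.24-fold), vinculin (Vcl, 4.95, 3.0-fold) and Eps8 (1.42, 2.34-fold). The keratins Krt8 and Krt18, which mark immature Sertoli cells, were at 0.00105 and 0.00530. Of 13 retinoid genes, 7 were tested and 2 were Sertoli-high, the retinol receptor Stra6 (2.91, 6.26-fold) and the retinaldehyde dehydrogenase gene Aldh1a1 (9.91, 3.46-fold). Aldh1a1 was at 18.5 in soma_CKO. Of 12 phagocytosis genes, 9 were tested and 4 were Sertoli-high, and these were the receptor kinases of the TAM family, Axl (4.09, 3.10-fold), Mertk (1.71, 2.65-fold) and Tyro3 (2.18, 2.17-fold), and their ligand Gas6 (2.77, 6.05-fold). The other ligand of that family, Pros1, stood at 0.336 against at most 0.413. Among 10 genes of lactate and lipid metabolism, 9 were tested and 3 were Sertoli-high: the lactate exporter Slc16a3 (1.38, 5.06-fold), the lactate dehydrogenase subunit Ldhb (4.29, 2.38-fold) and Cpt1a (2.62, 2.66-fold). The glucose transporter Slc2a3 was lower in Sertoli cells (0.638) than in pachytene spermatocytes (11.1).

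Genes tied to immature and to mature Sertoli cells were both present. Of the 9 immature markers, 6 were tested and 3 were Sertoli-high (Amh, Inhbb and Thra), and of the 11 mature markers 10 were tested and 6 were Sertoli-high, against 8.60% of all genes tested. The cell cycle genes Mki67 and Top2a stood at 0.579 and 1.33 in Sertoli cells, below the highest germ cell levels of 5.99 and 7.21. Ccnd2, a cyclin of proliferating Sertoli cells and spermatogonia, stood at 5.24, against 10.8 in undifferentiated spermatogonia. The cell cycle inhibitor Cdkn1b was at 1.70, 1.37-fold above the highest germ cell population.

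The genes of other somatic cells of the testis and of spermatids were low in Sertoli cells, whereas some spermatogonial and spermatocyte genes were measurable. The 7 Leydig markers summed to 0.375 in Sertoli cells and 226 in soma_CKO, the 6 peritubular markers to 0.311 and 5.39, and the 7 markers of stroma to 0.594 and 17.6. The 6 endothelial markers summed to 0.191 and the 8 macrophage markers to 0.382, against 1.67 and 1.36 in soma_CKO and 26.8 and 0.829 in the unnamed somatic population. Of these 34 genes, 4 reached 0.2 in Sertoli cells and could be counted, and none of the 4 was Sertoli-high. The 7 spermatid markers summed to 0.0186 in Sertoli cells and 147 in elongating spermatids, with all 7 below 0.01 in Sertoli cells. The 6 spermatocyte markers summed to 2.25, of which the synaptonemal gene Sycp1 gave 1.64, and the 8 spermatogonial markers to 8.06, of which Dazl gave 3.27 and Uchl1 2.12. The lowest germ cell sums of these lists were 8.24 and 9.06, so the spermatogonial sum of Sertoli cells was close to the lowest in germ cells. The 16 secreted and carrier genes summed to 179 in Sertoli cells, 236 in soma_CKO and between 7.82 and 80.9 in germ cells, with the highest sum in elongating spermatids.

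In the other direction, 440 of 5282 genes (8.33%) that were at 0.2 or more in all germ cell populations had a Sertoli level of no more than 0.5 times the lowest of them. The highest germ cell population was pachytene spermatocytes for 191 of these and round spermatids for 92, and 121 were below 0.1 in Sertoli cells. Ddx4, the germ cell RNA helicase, had 0.531 in Sertoli cells and 5.91 in pachytene spermatocytes. BC051142 stood at 0.274 and up to 55.6 in round spermatids, Rimklb at 0.226 and up to 5.38, and Mgll, the monoacylglycerol lipase gene, at 0.173 and up to 4.49. The entry pi-Mgll.1 had the same RNA values as Mgll, so the pair counts 1 signal. Among the spermatocyte markers, 4 of 6 were in this group (Sycp1, Sycp3, Piwil1 and Hormad1).

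In scATAC-seq, 1062 of 16352 genes (6.49%) at 10 or more in Sertoli cells were at least 1.5-fold above the highest germ cell population. The 5 largest ratios were those of Shbg, given above, Mro (70.0 against 8.55, 7.44-fold), Gm31659 (64.2 against 9.01, 6.52-fold), the aldo-keto reductase gene Akr1cl (38.6 against 5.22, 6.36-fold) and Sys1 (75.1 against 11.1, 6.30-fold). Mro stood at 9.38 in RNA and Akr1cl at 0.845, both Sertoli-high, whereas Gm31659 was at 0.0348 and Sys1 at 0.481 with no excess over germ cells. Sys1 overlaps Dbndd2 and Trp53tg5, so its signal cannot be given to 1 gene.

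RNA and accessibility of the same genes ran together. Of the 699 Sertoli-high genes, 242 (34.6%) were also high in scATAC-seq, against 249 of the 7423 other genes tested in RNA (3.35%) and 1041 of all 27987 genes with both values (3.72%). The median log2 scATAC-seq ratio to the highest germ cell population was 0.40 in the Sertoli-high genes (quartiles 0.02 and 0.75) and -0.29 in the other genes tested. When mitochondrial genes were kept in the scATAC-seq scale, the count was 130 in place of 242 and the median 0.10. With an RNA ratio of 4-fold or more it was 0.57 over 98 genes, of which 47 were high in scATAC-seq. For 534 of the 699, the scATAC-seq value in Sertoli cells was above that of every germ cell population. This share was 76.4%, against 24.7% of the 16352 genes tested in scATAC-seq and 15.1% of all 27987 genes. Conversely, 242 of the 1041 genes high in scATAC-seq (23.2%) were Sertoli-high, and 133 of 2671 genes with RNA at 1 or more had a scATAC-seq value under 10. The authors named the scATAC-seq clusters from the RNA names of nuclei with both assays and from how accessible marker genes were. The assays thus do not define Sertoli cells independently.

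**Figure D4:**
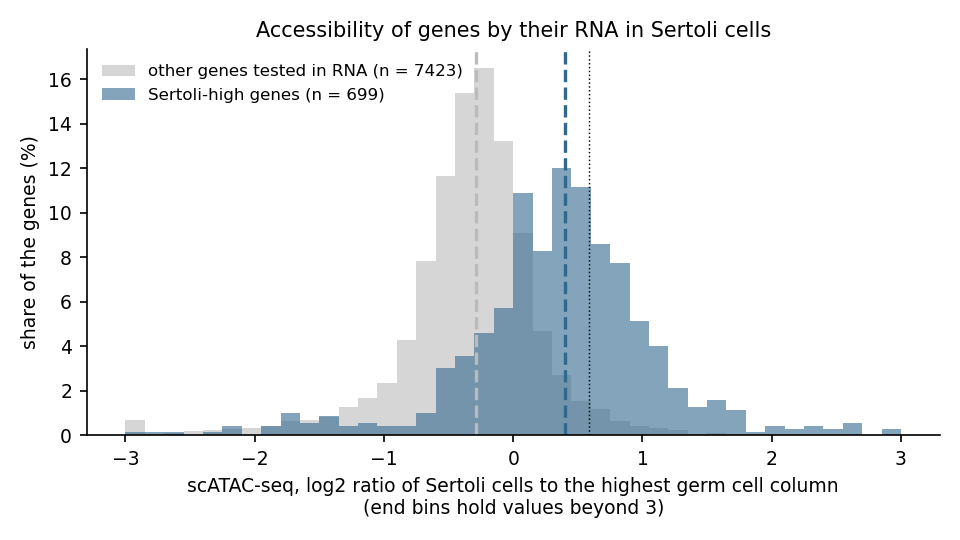
Distribution of the scATAC-seq log2 ratio of Sertoli cells to the highest germ cell population, as the share of genes per bin in percent, for 699 Sertoli-high genes (blue) and 7423 other genes tested in RNA (grey); dashed lines are the medians, 0.40 and -0.29, and the dotted line is the 1.5-fold limit. The Sertoli-high genes are shifted to the right, and 34.6% of them are beyond the limit against 3.35% of the others.

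The RNA pattern over the 13 populations that was most like that of Sox9 belonged to Gca (Pearson r = 0.997), Wfdc10 (r = 0.996), Sema6c (r = 0.994), Clec12b (r = 0.994) and Inhbb (r = 0.993), among 4888 genes at 0.5 or more in Sertoli cells. These correlations are across populations of 1 table, which share libraries and depth, and carry no test. Inhbb, a ligand gene, was the only member of the Sertoli lists among them. Levels in Sertoli cells ranged from 1.28 for Gca to 3.84 for Wfdc10, and all 5 were Sertoli-high. Clec12b was the only one besides Inhbb that was high in scATAC-seq, at 33.6 against at most 4.80.

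Sertoli cells were also set against soma_CKO, the somatic population of which 78.8% of cells by RNA name came from the library labelled Nfya-CKO. By scATAC-seq name, 12370 of 24188 soma_CKO cells (51.1%) were of 11 dpp and 3321 of the library labelled Nfya-CKO. The sources used here do not say which name the scATAC-seq column of soma_CKO follows. Population, genotype, age and library cannot be told apart in this comparison, and 70.1% of the soma_CKO cells shared a barcode as given above. In RNA, 918 of 10403 genes (8.82%) were at least 2-fold higher in Sertoli cells, and 1922 (18.5%) were at least 2-fold lower. The median log2 ratio of all genes tested was -0.07. This balance rests on genes of low level, since with a minimum of 1 in place of 0.2 there were 641 higher and 446 lower, or 59.0% higher in place of 32.3%. Among genes at 0.5 or more, high ratios above soma_CKO were those of H2-Q10 (2.71 against 0.122, 12.6-fold), Socs2 (2.59 against 0.184, 9.48-fold), Ptma (17.0 against 1.82, 8.91-fold), Lpl, Stra6, Amh (0.927 against 0.0321, 7.77-fold) and Sel1l3. With 0.5 added, Ptma had the highest of these log2 ratios, 2.92, and Amh the lowest, 1.42. H2-Q10 and Ptma belong to families with near-identical copies, and with reads of several matches discarded, their levels are uncertain.

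The genes lower in Sertoli cells were led by Leydig cell genes. Insl3, the Leydig hormone that guides testis descent, stood at 0.0176 in Sertoli cells and 177 in soma_CKO, and Jak3, which overlaps it, at 0.0221 and 178. The steroid enzyme genes Cyp17a1 (0.0208 against 31.2) and Hsd3b6 (0.00128 against 7.78) and all 7 Leydig markers were at least 2-fold lower. Ptgds (0.0815 against 52.3), the lipocalin Lcn2 (0.000251 against 19.3), Asxl3 (0.0577 against 11.7) and Ephx1 (0.0177 against 8.19) completed the 8 lowest ratios.

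Known Sertoli genes did not move as 1 group between these populations, and their counts are read against the 8.82% of all genes that were higher and the 18.5% that were lower. Of the junction genes, 9 of 15 tested were at least 2-fold higher in Sertoli cells and none lower, with Ocln (3.62-fold), F11r (4.48-fold) and Itga6 (3.82-fold) as examples. Of the secreted proteins, 4 of 16 were higher (Aard, Plat, Shbg and Cst9) and 6 lower (Clu, Trf, Defb36, Timp1, Ptgds and Tsx). Of the factors and receptors, 5 of 16 were higher (Sox9, Wt1, Fshr, Thra and Rhox8) and 2 lower (Nr5a1 and Etv5). Among ligands, Amh, Kitl, Dhh and Inhbb were higher and Cxcl12 lower. Gata4, Sox8, Inha, Sparc, Ctsl, Defb19, Serpina5 and Vim were within 2-fold. In all, 394 of the 699 Sertoli-high genes were also 2-fold above soma_CKO, 301 were within 2-fold and 4 were lower. soma_CKO thus held Sertoli genes such as Sparc (42.2), Clu (91.5) and Defb19 (9.13) beside Leydig, stromal and spermatid genes, the last summing to 7.13. Of the Sertoli cells by scATAC-seq, 1039 had the RNA name soma_CKO, 855 of them in the library labelled Nfya-CKO. The populations compared by RNA were therefore not kept apart by both assays. Of the soma_CKO cells of the library labelled Nfya-CKO, 3628 shared a barcode with a Cre/+ cell, which was a germ cell for 3305 of them, and the median was 1209 UMIs in the soma_CKO cell and 9447 in the Cre/+ cell. The part of this in the levels of soma_CKO was not tested.

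**Figure D5:**
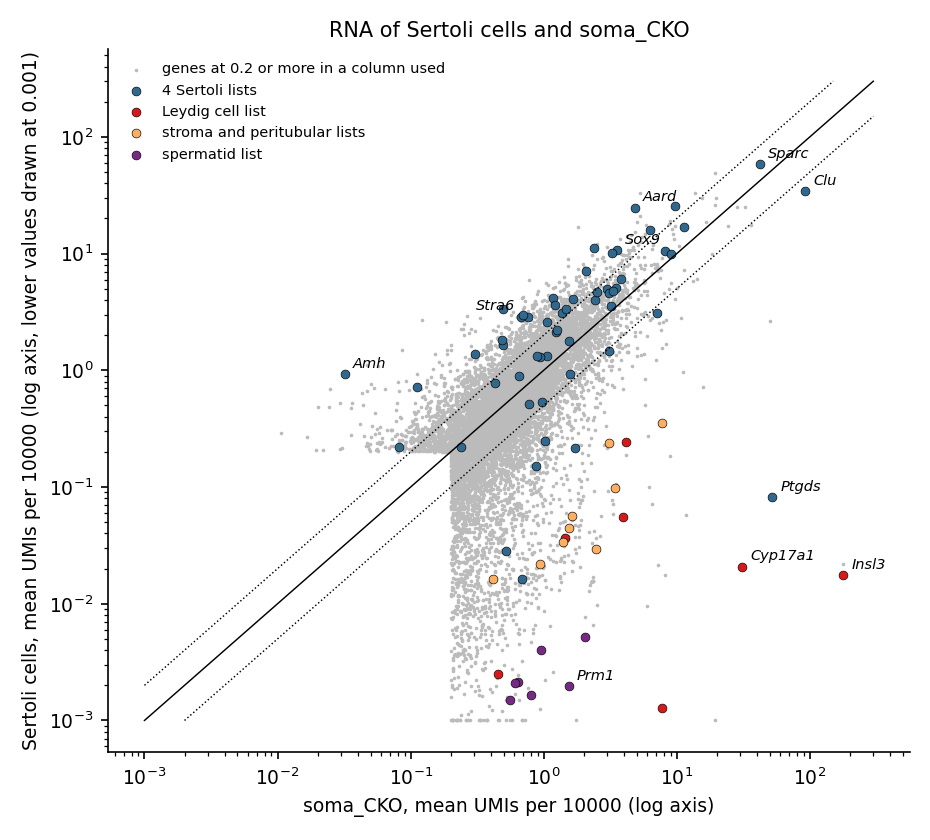
RNA level of each gene in Sertoli cells against soma_CKO, in mean UMIs per 10000 on log axes; grey points are genes at 0.2 or more in 1 of the populations used, coloured points the genes of fixed lists, the solid line marks equal levels and the dotted lines 2-fold differences, and values below 0.001 are drawn at 0.001. Leydig, stromal, peritubular and spermatid genes lie below the lines, while the Sertoli lists spread from Amh above them to Ptgds below.

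In scATAC-seq, 1270 of 17684 genes (7.18%) were at least 1.5-fold higher in Sertoli cells than in soma_CKO and 2153 (12.2%) at least 1.5-fold lower, so that 37.1% of the differing genes were higher. Mitochondrial genes took 51.0% of the signal in Sertoli cells and 64.5% in soma_CKO, and when they were kept in the scale, 93.0% of the differing genes were higher, so this split rests on the scale. The largest ratios were those of Msr1 (10.4 against 1.05, 5.56-fold), Cst9 (42.5 against 7.02, 5.42-fold), B930025P03Rik, Dthd1 (43.0 against 8.18) and Shbg (114 against 24, 4.58-fold). Msr1 lies at the minimum of 10, and with 5 added in place of 1 its log2 ratio was 1.35 in place of 2.47, below those of Shbg (2.03), Cst9 (1.98), Dthd1 (1.86) and B930025P03Rik (1.68). The lowest were Gm49303, Gm10556, Lbp (3.83 against 52.2), Gm10787 and Gm15647. Clu was higher in accessibility (118 against 53.4, 2.20-fold) and lower in RNA (34.1 against 91.5, 0.373-fold), and the direction of its scATAC-seq ratio was the same on both scales. Of the secreted list 11 of 16 genes were higher in Sertoli cells, and of the junction list 9 of 14 tested. Amh had 104 in Sertoli cells against 47.3 in soma_CKO, and Nr0b1, a repressor of steroidogenic genes, 36 against 10.4.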

How the data were processed

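Nuclei of whole testes were profiled by simultaneous scRNA-seq and scATAC-seq, and 10 libraries (5 conditions, 2 assays) were used. The authors aligned reads to mm10 (the submitters' processing notes name STAR 2.7.10b, BWA 0.7.12, bedtools 2.27.1, Seurat 5.2.1 and ArchR 1.0.3), removed doublets, left out scRNA-seq cells with fewer than 500 genes or with mitochondrial UMIs of 5% and above, and kept scATAC-seq cells from 1000 fragments and from a TSS score of 4. They discarded reads of RNA that matched over 1 place. In the tables, 2091 cells of Nfya-CKO lay below that TSS limit in scATAC-seq and 4 scRNA-seq cells of 25 dpp below 500 genes. The authors deposited, per cell, the count of UMIs, genes or fragments, the percent of mitochondrial UMIs, the fraction of fragments in promoters and TSS enrichment, which is a ratio. The authors deposited 1 value per gene and population on a natural log scale, which was found from the values to be the log of 1 plus a mean summing to 10000 per population. The authors merged the fragments of each annotated cell type and defined promoter accessibility as mean coverage within 200 bases of a start site, but the sources used here do not say whether the deposited scATAC-seq values, which are on another scale, were made so. Per cell, 9 numeric columns went unused.

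The log of RNA values was undone by the exponential minus 1. scATAC-seq values were rescaled so that nuclear genes summed to 1000000, leaving out 13 mitochondrial genes. RNA was compared as the ratio of value + 0.1, counted at 2-fold for genes of at least 0.2, and scATAC-seq as the ratio of value + 1, counted at 1.5-fold for genes of at least 10. For genes lower than in germ cells, the values were compared without adding 0.1. Germ cells were the 9 populations without the spermatogonia of the library labelled Nfya-CKO, whose Nfya RNA was not lower. With 1 library per condition no p-value, standard error or test was possible, and intervals are exact Clopper-Pearson 95% intervals, with a limit of 3 cells for a share of 0. They cover counting error only.

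Named genes were Sox9, Clu, Nfya, the members of 20 fixed lists (170 genes, all in the RNA table), and those with the largest ratios: 10 above and 5 below germ cells in RNA, 5 above germ cells in scATAC-seq, 8 in each direction against soma_CKO in RNA, 5 in each direction in scATAC-seq, and the 5 most like Sox9. Of these, 2 are not reported here. RNA ratios were ranked among genes at 0.5 or more in the higher population. The cells, lists and comparisons were chosen with earlier results of these data known. Coordinates and promoter windows of 300 bases are from RefSeq for GRCm38.p6, and the promoter table held 522 of the 699 Sertoli-high genes. Alternatives (40 planned and 6 added after seeing the data) covered pseudocounts, minimums, fold limits, scaling, the germ cell reference, filters on cells and shared barcodes. The counting steps were tested on simulated data. Python 3.11.15, numpy 2.4.6, pandas 2.3.3, scipy 1.17.1 and matplotlib 3.10.9 were used.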

Additional observations from a re-analysis of the deposited data

How the results depend on the processing

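No paired analysis was possible because each condition had 1 library per assay and the values were pooled over libraries. Of the values that answer a comparison, 95 kept their size under an alternative and 44 moved, and for single genes 223 kept theirs and 68 moved. Single genes were recomputed for Sox9, Clu, Nfya and the genes chosen by their ratio or likeness to Sox9, without the 5 lowest under germ cells and without the remaining list members, and none of those past its fold limit changed direction. The scATAC-seq log2 ratio of Nfya to soma_CKO, near 0, went from 0.0048 to -0.033 when scaled to the same median, and the balance of higher and lower genes against soma_CKO turned under 2 settings given below. The cause of a move was not tested unless the alternative itself changes which genes or cells are counted.

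Counts of genes followed the fold limit and the pseudocount. With a pseudocount of 0.5, 345 genes were higher in Sertoli cells than in germ cells in RNA in place of 699, and 398 higher and 546 lower than in soma_CKO in place of 918 and 1922. At 4-fold the counts were 98 higher and 95 lower against germ cells, 80 higher and 582 lower against soma_CKO, and 47 Sertoli-high genes also high in scATAC-seq in place of 242. Against the mean of the 9 germ cell populations, 1697 were higher and 1415 lower in RNA, and 3268 higher in scATAC-seq. Without a minimum level, 4987 genes were lower than in germ cells, and in scATAC-seq 1914 were higher and 5644 lower than in soma_CKO. With a minimum of 1, 67 were lower than in germ cells and 446 lower than in soma_CKO, and with a scATAC-seq minimum of 20, 1234 were lower than in soma_CKO. At 2-fold in scATAC-seq, 437 were higher than in germ cells, and 460 higher and 1082 lower than in soma_CKO. With mitochondrial genes in the scATAC-seq scale, 487 were higher than in germ cells, 4753 higher and 360 lower than in soma_CKO, and 130 Sertoli-high genes were also high. The share of differing RNA genes that were higher than in soma_CKO was 32.3%, and 42.2% with a pseudocount of 0.5, 59.0% with a minimum of 1 and 12.1% at 4-fold. In scATAC-seq it was 37.1%, and 25.3% without a minimum and 93.0% with mitochondrial genes in the scale. Scaling to the same median shifted RNA by -0.38 (preleptotene) to 0.40 (round spermatids) in log2.

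Shares of cells moved with depth. Among cells with at least 1000 genes, RNA shares were 54.2% at 11 dpp and 15% at 17 dpp. Without cells of shared barcodes, an alternative chosen after seeing the data, they were 50.1%, 11.7% and, in Cre/+, 0, and the median at 11 dpp was 9988.5 UMIs. Among cells with at least 3000 fragments, scATAC-seq shares were 55.1%, 59.4%, 14.5%, 3.34% and 46.7% in the order 11, 17 and 25 dpp, Cre/+ and Nfya-CKO, and medians were 15853, 8622, 7702, 19990 and 20531 fragments. With a TSS enrichment of at least 8, Cre/+ had 3.21%, Nfya-CKO 28.4% and 25 dpp 12.3%. With at least 4, also chosen after seeing the data, Nfya-CKO had 55.2%. The RNA values of 25 dpp and Cre/+ rest on 14 and 2 Sertoli cells.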

Other observations

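Sertoli cells took the largest share of UMIs from the X chromosome of the 13 populations, 3.46%, against 2.48% in soma_CKO and 0.600% in pachytene spermatocytes, in which the X chromosome is silenced during meiosis. Among the Sertoli-high genes matched to RefSeq, 64 of 676 (9.47%) lay on the X chromosome, against 292 of 7741 (3.77%) of all genes tested. In scATAC-seq the X share of Sertoli cells was 1.64%, within the range of 1.49% to 2.18% of the 13 populations.

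In scATAC-seq, the median value of the Sertoli-high genes was 65.0 in Sertoli cells, 48.9 in soma_CKO, 45.6 in Nfya-CKO spermatogonia and 41.8 in undifferentiated spermatogonia, and between 19.7 and 32.8 in the remaining 8 germ cell populations. Among the 9 germ cell populations, the median of these genes was thus highest in undifferentiated spermatogonia in accessibility, and in elongating spermatids in RNA. Among the markers of other testis cells, 1 of 7 Leydig genes and 1 of 6 peritubular genes were high in Sertoli cells in scATAC-seq. Only 1 Leydig gene and 4 peritubular genes were tested, and the share of all genes tested was 6.49%. Of each list 3 were lower in Sertoli cells than in soma_CKO, with 4 Leydig and 5 peritubular genes tested, against 12.2% of all genes tested. With mitochondrial genes in the scale, 0 Leydig genes and 1 peritubular gene were lower. The Leydig gene was Star, at 67.5 in Sertoli cells, at most 26.2 in germ cells, 44.2 in soma_CKO and 66.4 in the unnamed somatic population. The peritubular gene was Acta2, a smooth muscle actin gene, at 90.2, at most 24.9, 41.6 and 5.91. Their RNA levels in Sertoli cells were 0.241 and 0.240.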
